A study of Drosophila melanogaster with 3 samples.

Results

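Blimp-1 occupied 429 far intergenic sites in whole prepupae of Drosophila melanogaster, out of 4990 sites in all (8.60%). A site was taken as far intergenic when its strongest summit lay outside every protein-coding gene body and more than 5000 bp from the nearest protein-coding transcription start site (TSS). The animals were of the strain Blimp-1-GFP, which carries an insertion expressing Blimp-1 with green fluorescent protein (GFP) at its C terminus. Both sexes were pooled at the prepupal stage, the age was recorded as unknown, and tissues were not separated. Chromatin was sonicated to 200 to 800 bp and precipitated with an antibody against GFP, in 3 biological replicates of 1 group, with no control analysed here. In whole animals, a weak site in many cells and a strong site in few cells cannot be told apart.

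Blimp-1 is a zinc finger protein that binds DNA and represses transcription, and its own gene is switched on by the steroid hormone ecdysone as metamorphosis begins. Long stretches of DNA between genes often hold enhancers, elements that set when and where a gene some distance away is transcribed. A bound stretch therefore does not name the gene it acts on, and the protein-coding genes on both sides are given for each site.

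Each site's signal is that of the strongest overlapping peak in a replicate's list, as the authors' peak caller gave it. It is set against the median of those of the 4990 sites that had a peak in that replicate. A relative signal of 1 is therefore the median site with a peak, called the median site below. Sites without a peak, left out of that median, numbered 2, 35 and 589 in replicates 1, 2 and 3. Sequencing depth is unknown, as read counts are no part of the peak lists. Replicate 3 stood apart from the others: 12.9% of sites that were not far intergenic had no peak in it, against 0.0439% in replicate 1 and 0.745% in replicate 2. Results that rest on it are given by replicate. The reproducible list was itself called from these replicates, so overlap with them is in part built in.

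The sequences below show the best match to the PRDI-BF1 (Blimp-1) consensus within 100 bp of the summit. The first shows the strongest far site, and the others are among the strongest that held a full match or, next to phtm, a near one. They were read from the RefSeq release 6 genome (dm6), written 5′ to 3′ on the strand of the match, with the aligned consensus letters in capitals. The first is the strongest site, upstream of Blimp-1, at chr3L:5622181-5622211 on the plus strand, where the best match had 3 mismatches. A closer match, with at most 2 mismatches, lay in 46.9% of 201-bp windows sampled through far intergenic sequence. The stretch marked at the strongest site is therefore not above that background. The site between Rilpl and futsch (chrX:1399289-1399319, plus strand) and the site between CG5290 and Eip75B (chr3L:17939822-17939852, plus strand) held full matches. The site between CG6696 and phtm (chrX:18675565-18675595, minus strand) had 1 mismatch. A full match also lay in the gap between mtSSB and tara (chr3R:16218810-16218840, plus strand), and a full match on the minus strand lay between cv-c and HtrA2 (chr3R:14498537-14498567). By mean relative signal these sites ranked only 647 and 669 among all sites. The sequences were picked for their matches. Of the 20 strongest far sites, 5 held the consensus with at most 1 mismatch, 2 of them in full.
Eaf6-Blimp-1: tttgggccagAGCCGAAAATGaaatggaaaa
Rilpl-futsch: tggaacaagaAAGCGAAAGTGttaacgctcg
CG5290-Eip75B: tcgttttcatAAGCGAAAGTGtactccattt
CG6696-phtm: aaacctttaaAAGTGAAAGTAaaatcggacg
mtSSB-tara: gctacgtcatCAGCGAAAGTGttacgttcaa
cv-c-HtrA2: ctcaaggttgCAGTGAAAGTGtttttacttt

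Full consensus matches lay within 100 bp of 16 far summits (3.73%, 95% Wilson interval 2.31 to 5.97%) and in none of the windows of the same length centred 500 bp to either side. All windows of that length tiled through far intergenic sequence held one in 0.360% of cases, and all other sites in 3.68%. The 7-base core GTGAAAG, searched on both strands, lay at 27 far summits (6.29%, Wilson interval 4.36 to 9.002%), against 2.56% and 3.03% of the windows on either side. Over all sites the share was 8.50%, so far sites were not above that background. The share among far sites supported by each replicate was 6.43%, 7.58% and 5.39%. The consensus also allows GCGAAAG, which this search does not find. The full matches shown next to futsch, Eip75B and tara are of that form and are not among the 27. These intervals cover counting error only.

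The shorter GAAAGT, part of the consensus that overlaps GTGAAAG only in GAAAG, lay at 110 far summits (25.6%) and in 11.7% and 11.0% of the flanking windows, while the share over all sites was 28.3%. It peaked within 50 bp on either side of the summit, where 10.02% and 9.79% of far sites had a match per 50-bp bin. The still shorter GAAAG, contained in both, lay at 54.8% of far summits, at 55.4% of all sites and in 38.0% of far sequence windows. Of 13 motifs searched, GAGAGAG, bound by GAGA factor, lay at 3.497% of far summits and 8.57% of other sites. TATCGATA, the DNA replication-related element of many housekeeping promoters, lay at 1 far summit and at 2.87% of promoter sites. The mean GC content was 38.9% around far summits and 42.8% in the flanking windows at higher coordinates.

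**Figure D1:**
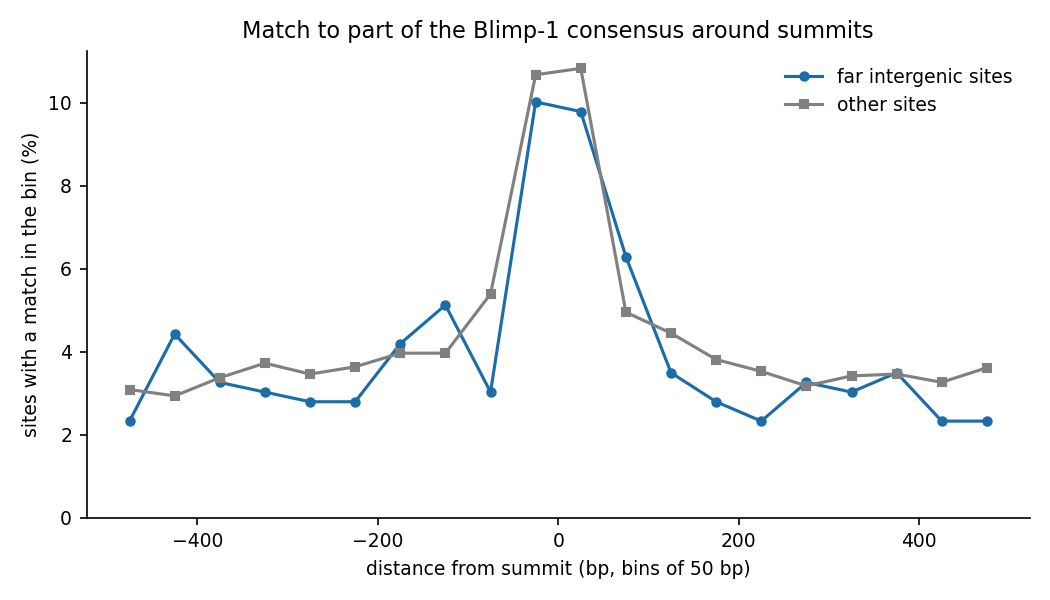
Share of sites (percent, vertical axis) with GAAAGT on either strand in 50-bp bins by distance from the summit (bp, horizontal axis), for far intergenic sites and all other sites. Both lines are highest in the 2 bins next to the summit, where far sites reach 10.02% and 9.79%.

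The strongest far site lay in the gap between Eaf6, which encodes a subunit of a histone acetyltransferase complex, and Blimp-1 itself. Its relative signals were 20.1, 22.2 and 15.3 in replicates 1, 2 and 3, with a mean of 19.2 ± 3.503 (SD, n = 3). All 3 replicates placed it far above the median site. The gap spans 22682 bp of 3L and held 8 far sites, all supported by 3 replicates, together with 5 sites within 5000 bp of a TSS. The mean relative signals of the 8 far sites ran from 1.47 to 19.2, and their summits lay 5520 to 15024 bp upstream of the nearest Blimp-1 TSS. Their median of 4.53 counts the inflated mean of the site described next. The strongest site of the gap was not a far one. It lay 3029 bp from the nearest Blimp-1 TSS, with a mean of 24.5 ± 6.16 (SD, n = 3). Among the 20 strongest far sites, 7 lay in this gap, or 6 without the site described next, whose mean rests on a stronger site's peak.

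One of these sites, from 5623211 to 5623595, had relative signals of 2.53, 22.2 and 1.69. The value in replicate 2 is that of 1 wide peak that also covers the strongest site, so the mean of 8.79 ± 11.6 (SD, n = 3) does not describe this site. Such sharing touched 3, 4 and 1 far sites in replicates 1, 2 and 3. The labels do not say where the transgene is inserted or how much DNA around Blimp-1 it carries. Signal from a second copy and from the native locus cannot be told apart.

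**Figure D2:**
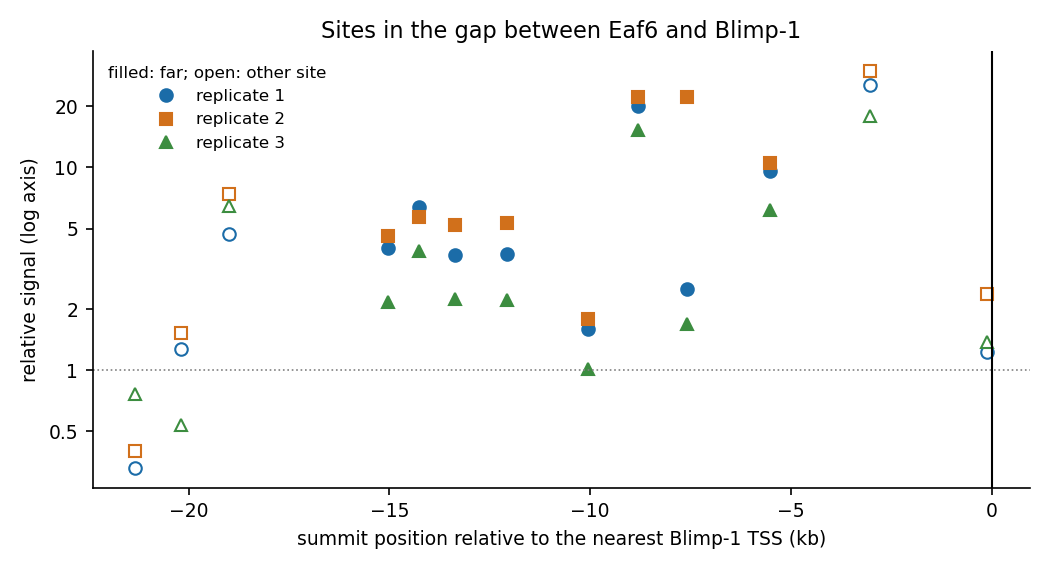
Relative signal (log axis, median site of the replicate = 1) of the sites between Eaf6 and Blimp-1, by summit position relative to the nearest Blimp-1 TSS (kb). Points are replicates, filled for the 8 far sites and open for others; the site 7584 bp away is high only in replicate 2, through a shared peak.

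Other strong far sites flanked genes of ecdysone synthesis and response. The site between CG5290 and Eip75B, an ecdysone-induced nuclear receptor gene, lay on 3L from 17939559 to 17940067. It was downstream of the Eip75B gene, 21972 bp from the nearest Eip75B TSS. Its relative signals were 6.58, 4.85 and 4.79 (mean 5.41 ± 1.02, SD, n = 3), and it is the full match shown above. The site between CG6696 and phtm, which encodes a cytochrome P450 of ecdysone synthesis, lay on X from 18675228 to 18675814, 10204 bp upstream of phtm. Its values were 5.39, 5.97 and 4.61 (mean 5.32 ± 0.682, SD, n = 3), so the replicates lay close together. The gap between Qsox2 and Eip93F, an ecdysone-induced gene of the late response, held 6 sites. The strongest of them had values of 3.29, 2.58 and 2.19 (mean 2.69 ± 0.558, SD, n = 3). It lay 9430 bp from the nearest Qsox2 TSS and 25937 bp from the nearest Eip93F TSS. Of 5 ecdysone regulators next to a gap with far sequence, these 3 (Blimp-1, Eip75B and Eip93F) flanked a bound gap. Among all protein-coding genes next to such a gap, 374 of 2400 did.

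The second strongest far site lay between Rilpl and futsch, which encodes a microtubule-associated protein of neurons, on X from 1398712 to 1399771. Its relative signals were 13.4, 15.4 and 9.36 (mean 12.7 ± 3.09, SD, n = 3). In the gap between CG18404 and heca, a regulator of imaginal cells, a site reached 6.65 ± 0.453 (SD, n = 3) and another 5.18 ± 0.668 (SD, n = 3). On X, a pair of sites between CG4004 and Paics, a purine synthesis gene, reached 7.05 ± 2.10 and 6.03 ± 1.51 (SD, n = 3). The first lay 5015 bp from a TSS of CG4004, just inside the limit. Sites next to the limit lay 5016 bp from hid and 5044 bp from CG9021 on the inside, and 4992 bp from CG14147, 4963 bp from wb and 4953 bp from yip3 on the outside.

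The remaining sites among the 20 strongest had mean relative signals between 3.68 and 8.18. They lay between CG13334 and CG42807 (8.18 ± 1.60, SD, n = 3), and between Su(z)2, a relative of Polycomb group genes, and CG13323 (6.96 ± 1.10, SD, n = 3). Others lay between Cyt-c1L and eEF1gamma (6.42 ± 1.07), between betaTub60D and slbo, a C/EBP factor gene needed for border cell migration (5.497 ± 0.937), and between CG9932 and Ttc30 (3.82 ± 0.623). The last lay between CG9300 and Shal, a potassium channel gene (3.68 ± 0.830, SD, n = 3). All 20 were supported by 3 replicates.

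**Figure D3:**
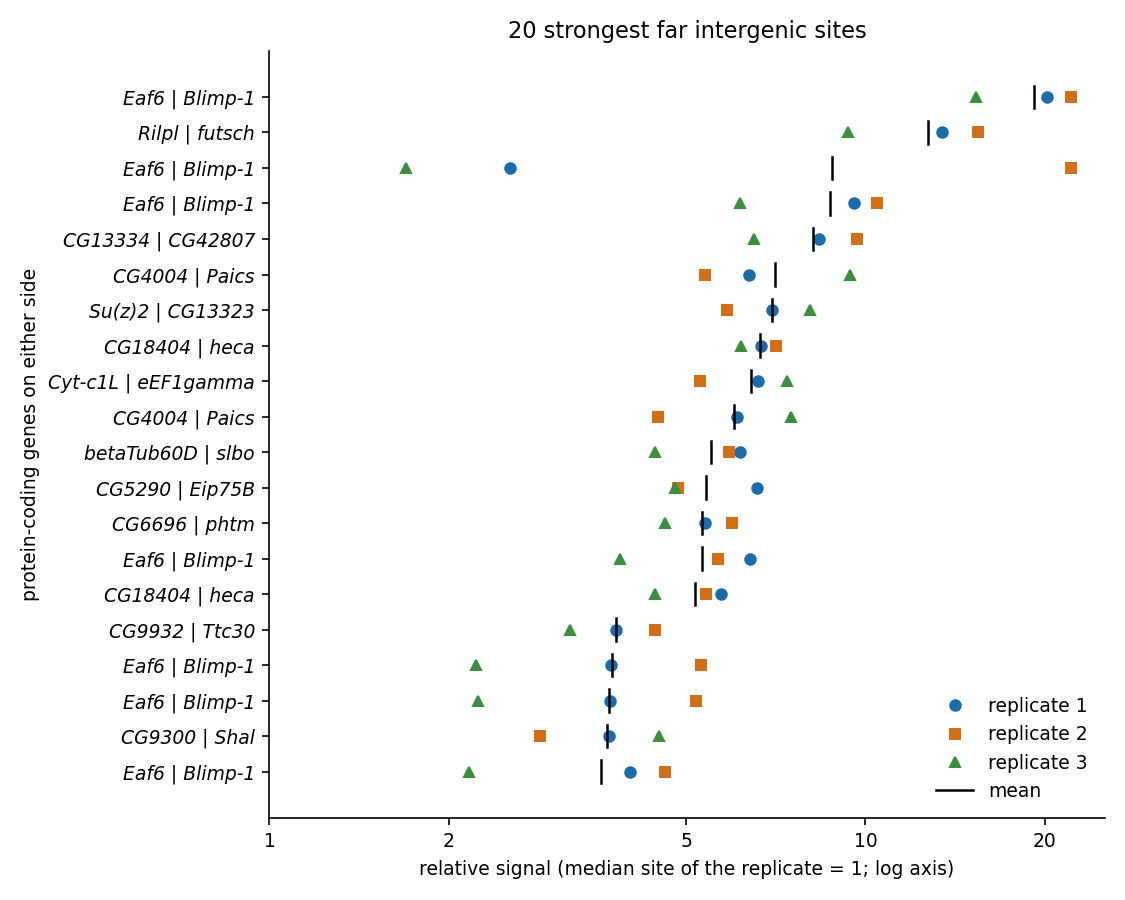
Relative signal (log axis, median site of the replicate = 1) of the 20 strongest far intergenic sites, labelled by the protein-coding genes on either side. Points are the 3 replicates and bars their mean, which runs from 3.599 to 19.2; the third site is spread widely because of a peak shared in replicate 2.

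Most far sites were weaker than these. Their median relative signal was 0.876, 0.866 and 0.964 in the replicates (mean 0.902 ± 0.0544, SD, n = 3), and 249 had a mean below 1 while 56 had a mean above 2. The log2 median of far sites minus that of other sites was -0.22, -0.23 and -0.07, with a mean of -0.17 ± 0.09 (SD, n = 3). A two-sided exact sign-flip permutation test over the replicates gave p = 0.25, the smallest that 3 replicates allow. When sites without a peak were set to the lowest listed signal, the direction turned in replicate 3, where the median was 1.08 for far and 0.990 for other sites. Against intergenic sites 1 to 5 kb from a TSS the log2 difference was -0.11 ± 0.07 (SD, n = 3), with the same exact permutation p of 0.25. With all sites ranked by pooled signal and cut into 4 equal bins, far sites made up 5.85% of the strongest bin and 9.94% of the weakest.

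Support was 60.1% by all 3 replicates (258 sites), where 56.9% of all sites had it, so far sites lay near the background. By replicate, 79.7%, 76.9% and 86.5% of far sites were supported, and for promoter sites 86.1%, 83.9% and 65.6%. Replicate 3 was the highest of the 3 for far sites and the lowest for promoter sites. It lacked a peak at 2 far sites and at 481 promoter sites, while its far share of the strongest regions was 11.4%, against 8.02% and 7.97% in replicates 1 and 2. Whether this belongs to the library was not tested.

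Far intergenic sequence made up 19.4% of the major chromosome arms (26.0 of 134 Mb) and held 16.5 sites per Mb, against 42.3 per Mb elsewhere. Density fell with distance, from 25.2 sites per Mb at 5 to 10 kb from a TSS to 22.6 at 10 to 20 kb, 11.3 at 20 to 50 kb and 1.77 beyond 50 kb. Some megabases with much far sequence held no site of any class. Among them were those starting at 3 Mb on 2R (0.796 Mb of far sequence) and at 26 Mb on 3L (0.928 Mb). The part of such regions in these densities was not tested. The median distance of a far site from a TSS was 10667 bp and the largest 69299 bp. Sites lay upstream of the gene with the nearest TSS in 225 cases and downstream in 204.

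The arms differed in density. 3L held 179 far sites (41.7%) on 26.3% of the far sequence, or 26.2 per Mb, while X held 30, or 7.32 per Mb. The other arms held 18.2 per Mb (3R), 16.0 (2L), 10.5 (2R) and 5.38 (chromosome 4, 1 site). On 3L the strongest regions of the replicates gave 22.7, 21.3 and 27.2 per Mb, and in each replicate 3L was the highest arm. Other sites were also densest on 3L and sparsest on chromosome 4, with 45.9 per Mb on 3L, 45.2 on 2R, 41.9 on X and 8.60 on chromosome 4, so 3L stood closer to the next arm. Within 50 kb of a TSS the far densities were 33.7 per Mb on 3L and 9.84 on X. The megabases from 0 to 1 and from 10 to 11 on 3L held 31 and 28 of its sites. Among the 2492 weaker far regions of the pooled replicates, 3L was not the highest arm. These regions gave 118 per Mb on 2L, 110 on 3R and 106 on 3L. X, 2R and chromosome 4 were lower, at 72.9, 70.2 and 43.0. The lead of 3L therefore holds for the reproducible sites and the strongest regions, and not for the weaker ones.

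**Figure D4:**
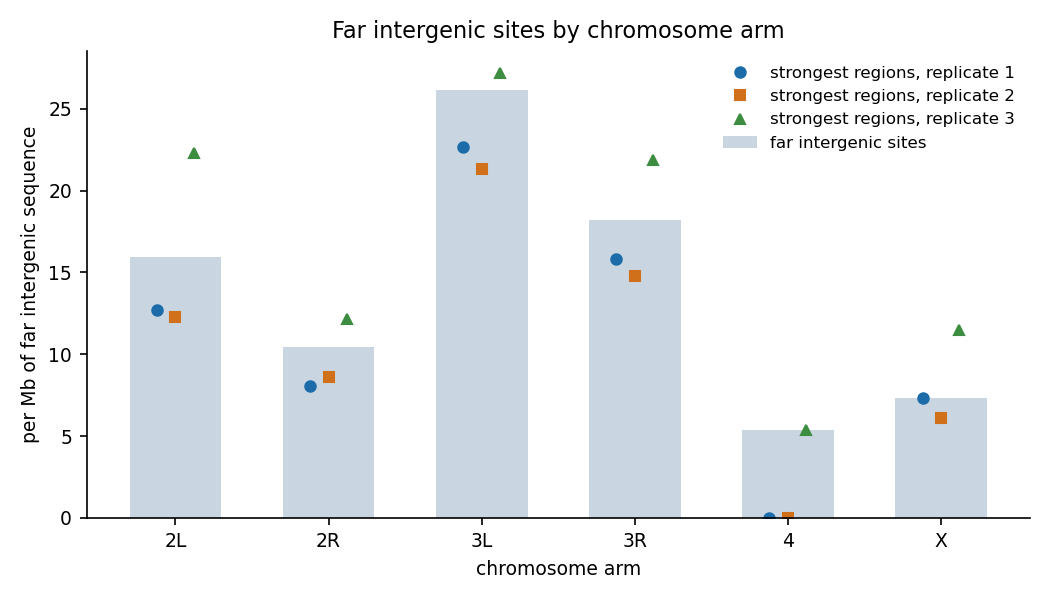
Far intergenic sites per Mb of far intergenic sequence (vertical axis) by chromosome arm. Bars are the 429 sites and points the far regions among the strongest of each replicate; 3L is highest at 26.2 per Mb.

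Far sites were clustered in gaps, the stretches between protein-coding gene bodies that hold far sequence. Of 1481 gaps, 196 held a far site (13.2%), 89 held 2 or more (322 sites) and 18 held 5 or more (127 sites), of which 13 lay on 3L. The median distance to the next far site was 3704.5 bp. Gaps with a site were longer, with a median of 26266.5 bp against 13330.5 bp for those without. The shares were 15.8% for gaps between genes pointing apart, 14.8% for genes in tandem and 10.6% for genes pointing at each other.

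The most far sites, 14, lay between CG7320 and CheA75a on 3L from 18203638 to 18252087. This gap lies between hid and grim, which trigger cell death, and the gap between hid and CG7320 held 4 more, the strongest at 2.48 ± 0.658 (SD, n = 3). The 14 had mean relative signals of 0.514 to 1.33, and none reached 2 times the median site. Next came the gaps between Or67d, a pheromone receptor gene, and CG12362 (10 sites, up to 3.58) and between hng3 and CG13898 (10 sites, up to 1.63). The gap between Ids, a sulfatase gene, and sty, an inhibitor of receptor tyrosine kinase signalling, held 9 sites up to 2.17.

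The share of gaps with a far site was set beside the 13.2% of all gaps for each gene list, as counts without a test. The lists were chosen with earlier results of these data known, so the shares are descriptions only. Gaps next to ecdysone regulators were bound in 3 of 5 cases, signalling ligands and receptors in 11 of 32 (34.4%) and developmental transcription factors in 31 of 124 (25%). The density next to transcription factors was 23.4 sites per Mb and next to signalling genes 59.7, where all gaps had 16.5. Cell death and autophagy genes had 2 of 7, tracheal and apical matrix genes 2 of 18 and axon guidance and adhesion genes 7 of 77 (9.09%). Ion channel and neural receptor genes had 1 of 53 (1.89%), and neither the 10 gaps next to cuticle genes nor the 3 next to digestive enzyme genes held one. The median gap length was 20149.5 bp for transcription factors and 12752 bp for channels and receptors, where all gaps had 14675 bp. Among all gaps, 9.78% of those over 10 to 20 kb and 24.6% of those over 20 to 50 kb held a far site. The part of gap length in the counts was not tested.

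Named members had moderate signals. Among transcription factors the strongest site lay between SoxN, a neural Sox factor, and CG32986 (2.25 ± 0.620, SD, n = 3). Its nearest SoxN TSS was 21353 bp away and its nearest CG32986 TSS 15778 bp. Another lay between Pex7 and hry, a pair-rule repressor (2.23 ± 0.282), 7389 bp from Pex7 and 18899 bp from hry. A site between ems, a head gap gene, and Art9 (1.76 ± 0.508) lay 11896 bp from ems and 29711 bp from Art9. The next lay between Dr, a muscle and neural homeobox gene, and CG7567 (1.26 ± 0.378). hry had 9 sites in the gaps on its 2 sides. Among signalling genes, a site between the cytokine genes upd1 and upd3 had 2.13 ± 0.626 (SD, n = 3). Others lay between hh, the Hedgehog ligand, and unk (1.43 ± 0.162), and between Ser, a Notch ligand, and CG42813 (1.39 ± 0.446). Among adhesion genes, sites lay between ND-B14.7 and shg, which encodes E-cadherin (2.24 ± 1.23), and between snky and caps (1.56 ± 0.135). Further sites lay between kek1 and ACXC (1.33 ± 0.341) and between beat-IIIc and CG15140 (1.01 ± 0.0972, SD, n = 3). A site between vvl, a tracheal POU factor, and Prat2 (1.12 ± 0.481) lay 57400 bp from the nearest vvl TSS. Another lay between Atg9, an autophagy gene, and Nox (0.537 ± 0.209). The last lay between CG11333 and mey, an apical matrix gene (0.699 ± 0.111, SD, n = 3).

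**Figure D5:**
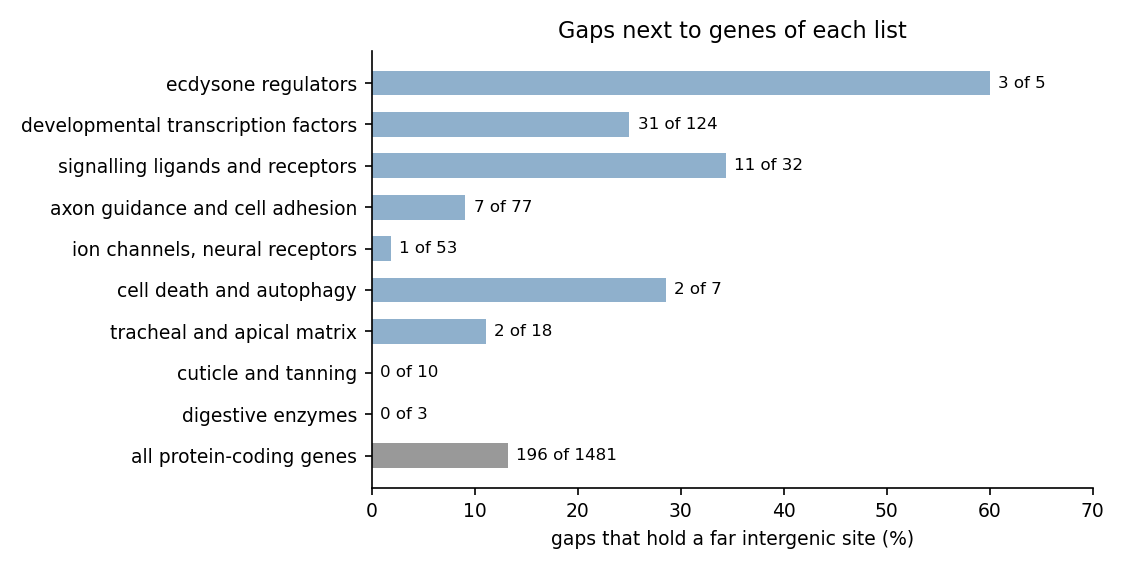
Share of gaps with far intergenic sequence that hold a far site (percent, horizontal axis), for gaps next to genes of each list and for all gaps, with counts beside the bars. All gaps stand at 13.2% and developmental transcription factors at 25%. The lists were chosen with earlier results of these data known.

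Noncoding genes held the summit of 56 far sites (13.1%), at 35 distinct genes, while they cover 6.89% of far sequence. By type, 55 of these summits lay in ncRNA genes and 1 in a small nuclear RNA gene. The strongest were at lncRNA:Vinr (7.05 ± 2.10), lncRNA:CR44619 (6.03 ± 1.51), lncRNA:CR44810 next to slbo (5.497 ± 0.937) and lncRNA:CR43174 next to Eip75B (5.41 ± 1.02, SD, n = 3). lncRNA:CR46006, between Or67d and CG12362, held 7 summits, the strongest at 3.58 ± 0.305, 3.39 ± 0.636 and 3.18 ± 0.906 (SD, n = 3). The other 3 of the 10 strongest lay at lncRNA:CR43337 (3.02 ± 0.242), lncRNA:CR44833 (2.77 ± 0.650) and lncRNA:CR44177 (2.37 ± 0.561, SD, n = 3).

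Annotated transposable elements held 1 far summit (0.233%), a G5 element between nrv3 and His1:CG33801, while they cover 12.9% of far sequence and 12.4% of that within 50 kb of a TSS. Weaker pooled far regions had 9 such summits (0.361%). The labels do not say how reads from repeats were aligned, and its part was not tested.

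microRNA genes were looked at after their values were seen. Gaps holding a far site contained 21 of the 57 microRNA genes found in gaps with far sequence (36.8%), in 13 of 35 such gaps (37.1%), where 13.2% of all gaps held a far site. The 35 gaps were longer, with a median of 24301 bp against 14675 bp for all gaps, and the part of length was not tested. The strongest site near one lay 1151 bp from mir-279, between Cyt-c1L and eEF1gamma, with relative signals of 6.59, 5.28 and 7.40. A site 1407 bp from mir-ban (bantam), a growth-promoting microRNA, had a mean of 1.83 ± 0.213 (SD, n = 3). lncRNA:let7C, the precursor transcript of the developmental timing microRNA let-7, held 3 summits with means of 1.10 ± 0.330, 0.718 ± 0.269 and 0.711 ± 0.203 (SD, n = 3).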

How the data were processed

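Per the text deposited with each library, the dm6 peak lists comprise a relaxed list for each replicate and for the pooled replicates, of 30000 peaks each, and a reproducible list passed by an IDR (irreproducible discovery rate) threshold. The sources used here do not name the aligner or the peak caller. The authors' deposited signal per peak has no stated scaling and was used only relative to the median site of the same list. The deposited column 10 (unit other) gives how far the summit lies from the peak start. The 5573 IDR peaks were merged to 4990 sites where they overlapped by at least 1 bp. A replicate supported a site when 1 of its 4990 strongest peaks overlapped it. Lists on dm3 were not used. Depth is unknown because peak lists hold no counts of reads.

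Gene models were those of Ensembl 115 (BDGP6.54, genome release 6). Python 3.11.15, numpy 2.4.6 and scipy 1.17.1 were used, with scripts tested on simulated data. The members and gene lists were chosen with earlier results of these data known. Genes were named by rule: the genes flanking the 20 strongest far sites and the 5 gaps with most sites, every ecdysone regulator and up to 4 members of each other list next to a bound gap, and noncoding genes at the 10 strongest such sites. One of these gaps is not reported here. Sequences were those of the strongest sites with the full or nearest consensus. Sites are not replicates, and p-values rest only on the differences seen in the 3 samples. When all 3 differences shared a direction, the sign-flip test gave its smallest p whatever their spread.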

Additional observations from a re-analysis of the deposited data

How the results depend on the processing

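Taking sites over 10000 bp from a TSS left 235 sites (4.71% of all), with a GTGAAAG summit to flank ratio of 4.5 in place of 2.45 and 15.5% of gaps bound. Keeping sites with at least the median pooled signal left 186, with a median relative signal of 1.45, support by all 3 replicates of 98.4%, a ratio of 5 and 7.36% of gaps bound. Counting genes of every biotype left 231 sites (4.63%), a ratio of 2.8 and 9.23% of gaps bound. Scaling by the whole relaxed list gave a median of 3.65. Support was 48.3% when at least 0.5 of the site had to overlap and 99.3% with every relaxed peak. The ratio was 6.33 in a 50-bp window, 3.4 at sites supported by all 3 replicates and 2.08 against the lower flank. All these ratios turn on few matches, as only 11 flank windows at higher coordinates held one in the main setting. Leaving out each replicate gave support by the others of 66.0 to 72.3%. Without 3L, chosen after seeing the data, 250 sites (6.52%) remained, with a ratio of 1.89. With sites lacking a peak set to the lowest listed signal, the mean log2 difference between far and other sites was -0.10 in place of -0.17 (exact sign-flip permutation p = 0.5 in place of 0.25), and its direction turned in replicate 3. The mean over replicates reversed for no result. No paired analysis was possible because there is 1 group. Depth is unknown, so what it limits could not be computed.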
